A study of Mus musculus with 9 samples.

Results

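The genes described here encode the proteins of the cytosolic ribosome. They were chosen by name, with earlier results of these data known. The rule takes the protein-coding genes of both deposited tables whose GENCODE M1 symbol begins with Rpl or Rps and a digit, or is *Rplp0*, *Rplp1*, *Rplp2* or *Rpsa*, leaving out the Rps6k kinases and symbols with -ps. Of 85 annotated genes that satisfy this rule, 81 were listed in both tables, among 13259 genes in all and 12505 protein-coding genes. The rule counts 32 genes of the small (40S) subunit and 48 of the large (60S) subunit, paralogs included, and also takes in *Rps19bp1*, which encodes a protein that binds Rps19 and is not itself part of the ribosome. The 4 genes in neither table were *Rps4y2*, *Rpl10l*, *Rpl39l* and *Rpl3l*. The last is known from heart and skeletal muscle, and *Rpl10l* and *Rpl39l* from testis.

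The cells were AML12, a mouse hepatocyte line. RNA was sequenced from 9 libraries, 3 labelled control (the sources used here do not say what these cells carried), 3 with shRNA 1 and 3 with shRNA 2, hairpins against *Srrm2*, which encodes a scaffold protein of nuclear speckles. The knockdown libraries came from day 5 of infection with hairpin lentivirus, and nothing in the labels says whether libraries of 1 group came from separate cultures. What was used of each deposited table is 1 value per gene, the authors' mean normalized count over the control libraries and those of 1 hairpin. These means carry no standard deviation, so no value per library, no test and no comparison of either hairpin with the control is given.

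A ribosome holds 1 copy of most of its proteins, apart from the acidic proteins of the stalk. Cells make the proteins in matched amounts, and many of the mRNAs share a pyrimidine tract at their 5' end, called the TOP motif, through which mTOR signalling sets their translation. Mammalian genomes also hold many intronless copies of these genes, and the introns of the genes themselves host many small nucleolar RNAs (snoRNAs), which guide the modification of rRNA. In liver cells, ribosomal protein mRNAs are among the most abundant messages.

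To show the start sites, 30 bases are given for 5 members, from 11 bases before to 19 bases after the start that RefSeq annotates (GRCm38.p6), with the longest run of C and T in capitals. The first 4 have long runs, and the paralog *Rpl22l1* is among them. *Rps4x* is shown as a member without a long run near its annotated start. They lie at chr10:23787191-23787220 (- strand), chr4:86857349-86857378 (- strand), chr3:90213630-90213659 (- strand), chr3:28805497-28805526 (+ strand) and chrX:102189373-102189402 (- strand).
Rps12: gtcatgcggccaccgccggCCTTTTCCCCT
Rps6: ggaagtcgggCCTCTTTTTCgtgacgcctc
Rps27: ccgctttcgCTCCTTTCCggcggtgacgac
Rpl22l1: ggcgcaagcccgTTCTCTTCCCacggctgc
Rps4x: ggctgggcggagcaacccaggCTCCagcgc
A start site in the RefSeq table was found for 60 of the 81 genes. Within 20 bases on either side of it, on the strand of the gene, 28 of the 60 (46.7%) had a run of at least 8 pyrimidines, compared with 15.7% of 8776 protein-coding genes. The median longest run was 7 bases for the ribosomal protein genes and 5 bases for all. Mitochondrial ribosomal protein genes, which encode the separate ribosome of mitochondria, had such a run in 16.7% of 66 cases. Runs were counted wherever they fell in the window, not only where an mRNA begins. Neither the shares nor the sequences shown therefore tell which members carry a TOP motif.

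Levels were compared between genes per length. The authors' mean was divided by the length of all exons in kb, and the values were scaled to sum to 1000000 over the listed genes of a table (scaled level). The 81 genes had a median scaled level of 645 (quartiles 308 and 1256) on the average of both tables, against 28.9 for protein-coding genes (quartiles 9.39 and 68.0). All 81 were above the protein-coding median, 70 were in the top 10% of protein-coding genes and 32 in the top 100. The median was 955 for the small subunit and 591 for the large subunit. Both depend on the exon length used, and subunit medians by transcript length were not taken. Mitochondrial ribosomal protein genes (76 listed) had a median of 37.1, translation factors (62) of 110 and ribosome assembly factors (38) of 65.5.

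Although a ribosome needs the proteins in near equal numbers, their scaled levels spanned 83.1-fold from the lowest to the highest member, and 4.07-fold between the quartiles. These spreads use exon length and take in the paralogs and *Rps19bp1*. *Rps12*, a protein of the small subunit, was the highest, with authors' means of 2780 in the table of shRNA 1 and 3337 in that of shRNA 2, or scaled levels of 3204 and 3687. *Rplp0*, the base of the stalk that recruits elongation factors, had means of 8424 and 9939 and scaled levels of 3027 and 3422. *Rpsa*, at the mRNA exit side of the small subunit and also known as the laminin receptor, had the largest means of all members, 9049 and 10538 (scaled levels 2898 and 3235). *Rplp1* and *Rpl32* completed the upper 5, with scaled levels of 2822 and 2791 averaged over the tables. The genes of largest mean took a limited part of the total, since the 5 largest held 20.4% and 20.8% of the summed member means in the 2 tables.

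At the other end, *Rpl21* had authors' means of 227 and 257 (scaled levels 39.8 and 43.1) and *Rpl35a* had 250 and 281 (scaled levels 42.3 and 45.6). *Rps19bp1* followed with means of 74.3 and 66.9, the lowest of the 81, and scaled levels of 53.4 and 46.0. The next were *Rpl7l1*, a paralog of *Rpl7*, at 68.6 and *Rpl24* at 73.8, as averages of the scaled levels. The length of a gene weighs heavily here, because the exons of all annotated transcripts are summed. Among members, the scaled level and the exon length had a Spearman's rho of -0.53 (n = 81 genes, which are not replicates, and length enters both). With the length of the lowest-numbered coding transcript instead, the mean per kb of *Rpl35a* was 541 rather than 75.4, that of *Rpl24* 1127 rather than 127, and *Rps24*, which had rank 10 by exon length, came first at 7036, while *Rpl21* (130), *Rpl7l1* (118) and *Rps19bp1* (85.0) were the 3 lowest by that length. The quartiles then lay at *Rpl13a* (3219) and *Rpl22* (1138), a smaller fold apart than by exon length.

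**Figure D1:**
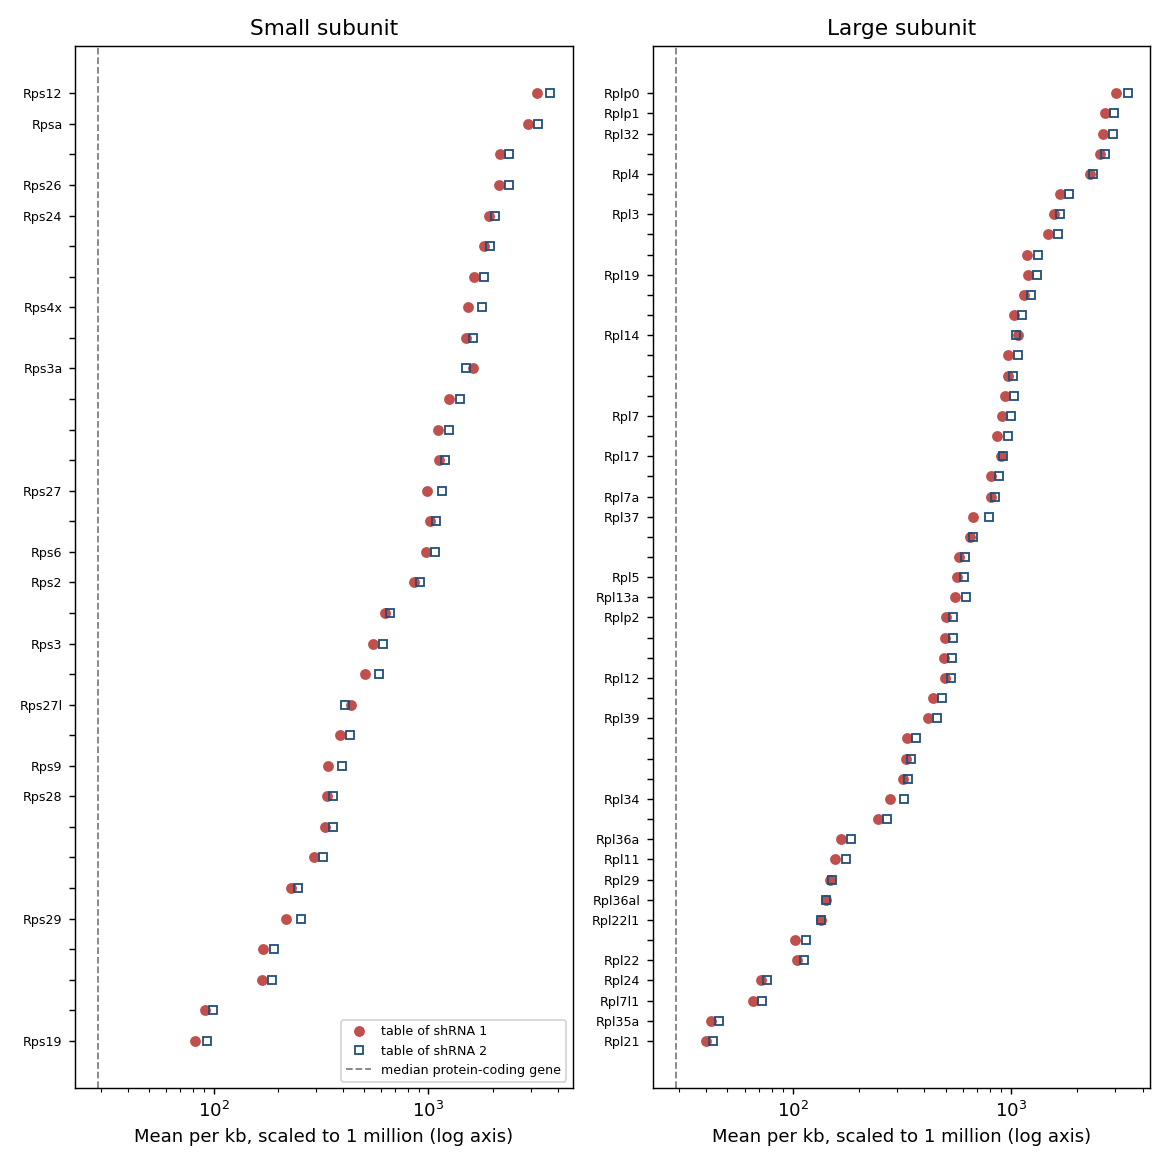
Scaled level (authors' mean per kb, scaled to 1000000, log axis) of the 32 small-subunit and 48 large-subunit genes, with a circle for the table of shRNA 1 and a square for that of shRNA 2. All members lie right of the dashed line at the protein-coding median (28.9), and for nearly all genes the square lies right of the circle. Names are given for the genes described in the text, and *Rps19bp1*, which belongs to neither subunit, is not drawn.

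By role, the stalk proteins had unequal levels. *Rplp2*, which forms a dimer with Rplp1, had scaled levels of 501 and 540 in the tables of shRNA 1 and shRNA 2, and *Rpl12*, at the stalk base, 496 and 527, well under *Rplp0* and *Rplp1*. By the mean per kb of the lowest-numbered coding transcript the gaps were smaller. *Rplp2* then had 1919 and *Rpl12* 1844, against 6761 for *Rplp0* and 4842 for *Rplp1*. *Rpl5* and *Rpl11* form a particle with 5S rRNA, which can also bind the p53 ligase Mdm2. Their authors' means were 3712 and 4160 for *Rpl5*, and 701 and 824 for *Rpl11*. In scaled levels they stood at 585 and 165, and by the mean per kb of the lowest-numbered coding transcript at 1925 and 916. Of the proteins that line the tunnel for the nascent chain, *Rpl4* had a scaled level of 2341, *Rpl17* of 906 and *Rpl39* of 438. By the mean per kb of the lowest-numbered coding transcript the order of the last pair turned, with *Rpl39* at 1760 and *Rpl17* at 1554. *Rpl3*, which reaches the peptidyl transferase centre, had a scaled level of 1621.

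In the small subunit, *Rps2* and *Rps3*, at the mRNA entry, had scaled levels of 886 and 583. Their means per kb of the lowest-numbered coding transcript were 2542 and 2350. At the exit, *Rps26* had 2250 and *Rps28* 349, but by the mean per kb of the lowest-numbered coding transcript they were closer, at 3861 and 2293. *Rps6*, the substrate of the S6 kinases, had a scaled level of 1025. *Rps19*, which is mutated in Diamond-Blackfan anaemia, had authors' means of 645 and 763 and a scaled level of 87.5, with an annotated exon length of 4685 bases. With its lowest-numbered coding transcript of 774 bases, the mean per kb was 909 rather than 150. *Rpl13a*, which also takes part in translational silencing, had a scaled level of 585, and a mean per kb of the lowest-numbered coding transcript of 3219. Of ribosomal genes that the symbol rule does not reach, *Fau* (a fusion of a ubiquitin-like protein with Rps30) had a scaled level of 2229 and *Gnb2l1* (Rack1) of 517.

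The members held 2.49% of the summed means in the table of shRNA 1 and 2.73% in that of shRNA 2. The small subunit gave 1.02% and 1.13%, and the large subunit 1.47% and 1.60%. The mitochondrial ribosomal protein genes held 0.177% and 0.174%, so their share did not have the same order.

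To compare the tables gene by gene, the log2 ratio of the mean in the table of shRNA 1 to that in the table of shRNA 2 was taken for the 11451 genes whose means reached 10 in each table. It was centred on the median gene, whose ratio was -0.07 before centring. Both means include control libraries, so the ratio shows neither hairpin against the control. It is a diluted difference between the hairpins only if the control libraries and their normalized values are the same in both. Ribosomal protein genes were lower in the table of shRNA 1 almost throughout. Of the 81, 75 had a centred ratio below 0 and 6 above 0, with a median of -0.12 (quartiles -0.15 and -0.08), that is a mean 8.12% lower. Past a log2 ratio of 0.1, 48 members were lower, against 24.4% of all genes, and 3 were higher, against 25.4% of all genes.

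The spread among the members was small beside that of other genes. The centred ratios of the 81 had an SD across genes of 0.07, against 0.20 over all genes. Since members are highly expressed, genes whose means reached 1000 in each table were also taken. The 55 members among them had a median of -0.12 with 53 below 0 (SD across genes 0.06), and the 1211 other genes a median of 0.01 with 45.5% below 0 (SD 0.13). The labels of 2 control libraries name, beside the table of shRNA 1, tables of further hairpins and not that of shRNA 2, so that the libraries behind its mean are not certain. What follows assumes that both tables average the same 3 control libraries with 3 of a hairpin. It also assumes that the controls' normalized counts are equal in both after centring, which was not tested. The hairpin groups then differed by 2 times the difference of the means. The median member was then lower with shRNA 1 than with shRNA 2 by 16.2% of its mean in the table of shRNA 2. This carries no error, and whether a single library holds the shift was not tested.

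**Figure D2:**
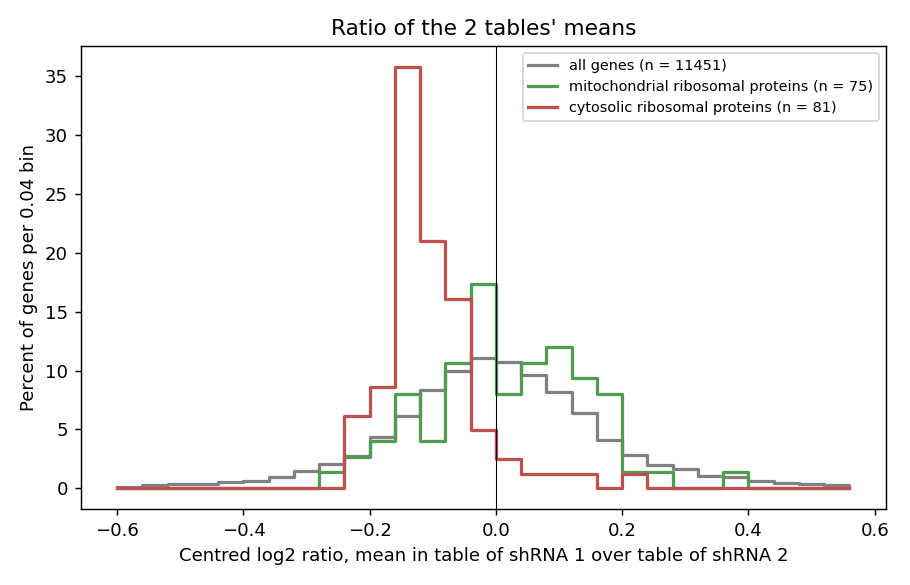
Percent of genes in each 0.04-wide bin of the centred log2 ratio (x axis, shRNA 1 table over shRNA 2 table) for 81 cytosolic ribosomal protein genes, 75 mitochondrial ones and all 11451 genes. The cytosolic set peaks left of 0, with a median of -0.12, while the mitochondrial set (median 0.01) straddles 0.

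The lists close to the ribosome did not show the same count. Of 75 mitochondrial ribosomal protein genes, 36 were below 0 and 39 above, with a median of 0.01. Past 0.1, 13 of them were lower and 21 higher, beside 24.4% and 25.4% of all genes. Of 60 translation factors by symbol, 35 were below 0, with a median of -0.01, and 10 were past 0.1 lower and 11 higher. The 7 elongation factor symbols (Eef), a split made after the values were seen, had a median of -0.08, with 5 below 0. These symbols take in the kinase gene *Eef2k* (-0.04) and also *Eef1e1* (0.23). The rest were *Eef1b2* (-0.16), *Eef2* (-0.16), *Eef1a1* (-0.11), *Eef1g* (-0.08) and *Eef1d* (0.04). The 53 initiation factor symbols (Eif, some of them kinases or Argonaute genes) had a median of -0.01. *Eef1a1*, which brings aminoacyl-tRNA to the ribosome, had authors' means of 54779 and 62212 (centred log2 ratio -0.11), and *Eef2*, the translocation factor, 18527 and 21724 (-0.16). Of 38 ribosome assembly factors, 24 were below 0, with a median of -0.03, and 8 were past 0.1 lower and 4 higher. Among them *Npm1*, nucleophosmin, had 1894 and 2285 (-0.20), while *Rrs1*, a factor of large-subunit assembly, had 86.0 and 72.8 (0.31). *Eef1a1*, *Eef2*, *Npm1* and *Rrs1* were picked as examples after their values were seen. *Gnb2l1* had -0.16, *Fau* -0.07 and *Srrm2* itself -0.06.

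The shift was present in both subunits. The median centred log2 ratio was -0.14 for the 32 small-subunit genes, of which 30 were below 0, and -0.11 for the 48 large-subunit genes, of which 45 were. The lowest was that of *Rps27*, a zinc finger protein of the small subunit, whose authors' mean was 568 in the table of shRNA 1 and 697 in that of shRNA 2 (-0.22). *Rpl37*, another zinc finger protein, had 976 and 1196 (-0.22), *Rps29* 253 and 309 (-0.22) and *Rps9* 1443 and 1752 (-0.21). These 4 lie at the edge of a narrow range rather than apart from it, with *Rps4x* and *Rpl34* following at -0.20 each.

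Genes of the highest level were in the same range, with *Rps12* at -0.19, *Rplp0* at -0.17, *Rpsa* at -0.15, *Rpl32* at -0.14 and *Rplp1* at -0.13. *Rpl11* had -0.16, *Rps3* -0.14, *Rps6* -0.14 and *Rps19* -0.17. The tunnel proteins *Rpl4* and *Rpl17* were nearer to 0, both at -0.03, and *Rpl39* had -0.13. Across the 81 genes the centred ratio had a Spearman's rho of -0.08 with the scaled level (n = 81 genes, which share the libraries).

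Where both means reached 100, the 4 members furthest up were *Rps3a*, *Rps27l*, *Rpl14* and *Rpl36al*. *Rps3a*, a small-subunit protein, had authors' means of 2643 and 2552 (0.12), and *Rpl14*, a large-subunit protein, 1693 and 1728 (0.04). Without the paralogs and *Rps19bp1*, 74 of 76 genes were below 0, and *Rps3a* and *Rpl14* were the exceptions. *Rps19bp1* had the highest centred ratio of the 81, 0.22, at the lowest mean. The other members above 0 were thus *Rps19bp1* and the paralogs *Rps27l*, *Rpl36al* and *Rpl22l1*.

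**Figure D3:**
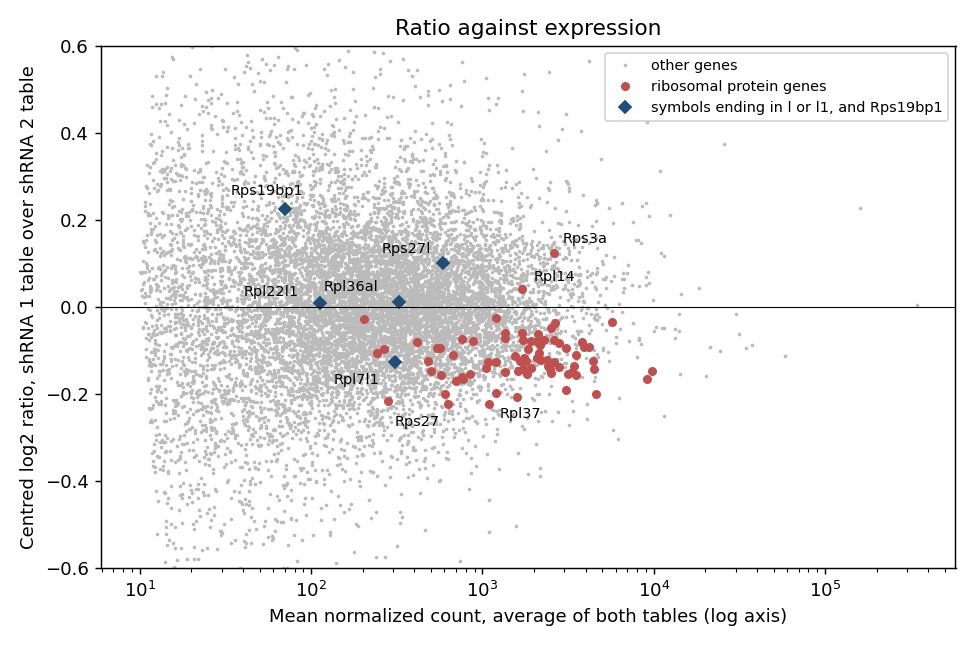
Centred log2 ratio (y axis, limited to 0.6 on both sides, which leaves out 169 other genes) against the mean normalized count averaged over both tables (log axis). Ribosomal protein genes (circles) form a band at about -0.12 with *Rps3a* and *Rpl14* above 0, and of the diamonds (symbols ending in l or l1, and *Rps19bp1*) only *Rpl7l1* lies within the band.

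Each of the 4 listed paralogs has a listed parent. *Rps27l*, known as a target of p53, had authors' means of 597 and 586 (centred log2 ratio 0.10), where its parent *Rps27* had 568 and 697. The paralog was thus above the parent by 0.32 on this scale. *Rpl36al*, an intronless copy, had 320 and 334 (0.01) against 460 and 535 for *Rpl36a* (-0.15). *Rpl22l1* had 110 and 114 (0.01) against 509 and 570 for *Rpl22* (-0.09), which is an RNA-binding protein of the large subunit. *Rpl7l1* had 286 and 328 (-0.13), close to *Rpl7* with 4105 and 4701 (-0.12). In scaled level, *Rps27* exceeded *Rps27l* 2.52-fold, *Rpl36a* exceeded *Rpl36al* 1.24-fold and *Rpl7* exceeded *Rpl7l1* 13.9-fold, while *Rpl22* stood at 0.808 times *Rpl22l1*. By the mean per kb of the lowest-numbered coding transcript, *Rpl22* (1138) was above *Rpl22l1* (229), so that this order depends on the length used. The other pairs kept their order by that length, though the size of the gap moved. *Rps27* had 1833 and *Rps27l* 1185, *Rpl36a* 1030 and *Rpl36al* 621, and *Rpl7* 3786 and *Rpl7l1* 118.

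The coding sequences of *Rps27* and *Rps27l*, as in the GENCODE M1 transcripts, are printed because this pair differed most in the centred log2 ratio. Capitals mark the 61 of 255 bases at which they differ (76.1% identity). The differences are spread along the sequence. *Rps27* lies at 90016593 to 90017573 of chromosome 3 (- strand) and *Rps27l* at 66793893 to 66797323 of chromosome 9 (+ strand) of mm9.
Rps27: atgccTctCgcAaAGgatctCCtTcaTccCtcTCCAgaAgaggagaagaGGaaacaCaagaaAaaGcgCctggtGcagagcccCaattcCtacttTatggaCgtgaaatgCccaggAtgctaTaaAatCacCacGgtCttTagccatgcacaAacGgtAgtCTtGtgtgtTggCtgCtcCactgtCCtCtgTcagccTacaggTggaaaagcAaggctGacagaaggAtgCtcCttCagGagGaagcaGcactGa
Rps27l: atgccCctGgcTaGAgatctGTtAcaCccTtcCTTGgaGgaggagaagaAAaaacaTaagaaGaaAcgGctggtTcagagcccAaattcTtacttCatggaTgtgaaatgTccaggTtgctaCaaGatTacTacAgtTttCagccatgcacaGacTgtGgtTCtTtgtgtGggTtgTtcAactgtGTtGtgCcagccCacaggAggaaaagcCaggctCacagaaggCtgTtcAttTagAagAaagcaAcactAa
The other pairs had 87.9% identity over 321 aligned bases (*Rpl36al* and *Rpl36a*), 70.2% over 369 (*Rpl22l1* and *Rpl22*) and 59.9% over 730 (*Rpl7l1* and *Rpl7*).

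The authors kept only uniquely mapped pairs, and ribosomal protein genes have many near copies. The part of this filter in the levels and ratios was not tested. The coding sequence of each member was searched in the mm9 genome for further places that match over at least 80% of its length in 1 stretch at an identity of at least 90%. Of the 81 genes, 77 had at least 1 such copy, with a median of 9 and 1038 in all, and 39 had at least 10. *Rpl21* had the most, 79, followed by *Rpl7a* with 78, *Rpl29* with 62, *Rpl17* with 54 and *Rps2* with 51. Only 23 of 76 mitochondrial ribosomal protein genes had any, with at most 8.

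The median scaled level was 879 for the 4 genes without a copy, 692 for the 38 genes with 1 to 9 copies, 511 for the 27 with 10 to 19 and 854 for the 12 with 20 or more (Spearman's rho of -0.02 over the 81 genes, which share the libraries). With copies of at least 98% identity instead, rho was -0.10. *Rpl21* had the most copies, 15 of them at that identity, and the lowest scaled level, 41.5. *Rpl7a*, with 11 at that identity, had a scaled level of 823, and *Rps12*, with 5, had the highest. Of the next by number of copies, *Rpl29* had a scaled level of 149, *Rpl17* of 906 and *Rps2* of 886. Exon length enters all these levels as well. The median centred log2 ratio was -0.12 both for the 39 genes with at least 10 copies, all of them below 0, and for the 42 with fewer.

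**Figure D4:**
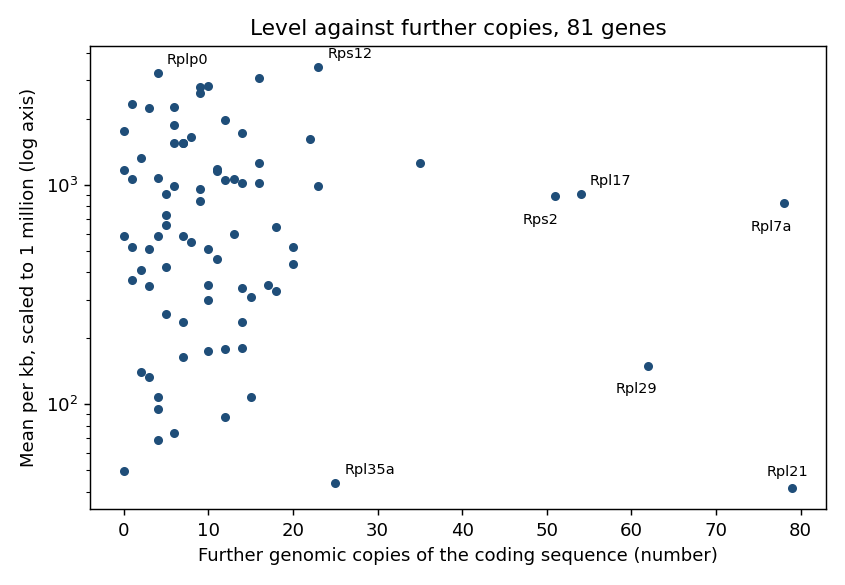
Scaled level (y axis, log) against the number of further genomic copies of the coding sequence (x axis), 1 point for each of the 81 genes. *Rpl21* (79 copies) and *Rpl35a* (25) are lowest, and *Rpl29* (62) lies at 149. *Rpl7a* (78) and *Rps12* (23) lie within or at the top of the range of genes with few copies.

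The members shared further features that the names do not fix. Their lowest-numbered coding transcript had a median of 774 bases and their longest coding transcript a median of 5 exons, against 2769 bases and 9 exons for protein-coding genes, and the gene span had a median of 3243 bases against 22192. The GC content of the transcript was close to that of others, 50.7% against 50.4%. A snoRNA gene on the same strand lay within 30 of the 81 genes (37.0%), in contrast to 1.86% of protein-coding genes and none of the mitochondrial ribosomal protein genes. *Rpl4* held 5 of the 58 such snoRNA genes, and *Rpl7a* and *Rpl13a* held 4 each. Members with a snoRNA had a median centred log2 ratio of -0.10 and those without one -0.13. The 28 genes with a pyrimidine run of at least 8 bases had -0.12 and the 32 with a shorter run -0.11.

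The genes lay on 19 chromosomes, with 14 on chromosome 7 and 7 each on chromosomes 9, 11 and 17. An exon of 14 members overlapped an exon of a gene on the other strand (17.3%, against 22.1% of protein-coding genes), among them *Rps2* with *Snhg9* and *Rpl5* with *Fam69a*. *Rpl19* and *Rpl13a* overlapped a gene on the same strand. The libraries were strand-specific, but the strand setting of the counting is not given in the sources used here, so the counts of these genes are uncertain to that extent.

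The cells were checked against marker genes. All 9 hepatocyte markers were listed, with authors' means of 2151 and 1814 for *Alb*, 2497 and 2640 for *Ttr* and 1498 and 1624 for *Hnf4a*. The lowest was *Apoa1* at 39.4 and 38.9, whose scaled level of 18.5 lay below the protein-coding median. Their centred log2 ratios ran from -0.35 (*Serpina1a*) to 0.32 (*Alb*), and the part of this in the ratios of the ribosomal protein genes was not tested. Of 4 duct markers, *Krt19*, *Krt7* and *Sox9* were listed, at means between 670 and 2851. Of 3 leukocyte markers, *Ptprc* was near the floor at 5.30 and 5.47, while *Cd14* had 490 and 526. None of 3 endothelial markers was in both tables, and of 4 stellate or fibroblast markers *Des* and *Col1a1* were, at up to 8.03. *Srrm2* had means of 3428 and 3759, from which the knockdown cannot be read because control and knockdown libraries are averaged. The tables listed 13424 and 13478 genes, with means that summed to 6144608 and 6393456 and were at least 1.56 and 1.92.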

How the data were processed

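RNA-seq of 9 AML12 libraries (3 control, 3 shRNA 1, 3 shRNA 2) was used. After trimming, the authors aligned read pairs to mm9 by TopHat2 and kept concordant pairs with a unique position. HTSeq then gave counts for GENCODE M1, and the authors used DESeq2 1.8.2 for normalization. The deposited expression signal is the mean of the size-factor normalized counts of a gene over the libraries of 1 comparison. The deposited tables also hold the fold changes, standard errors, test statistics and p-values of the authors' own comparisons, which were not used here. With no value per library, depth per library is unknown and no test was made.

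Every identifier was found in GENCODE M1 (NCBIM37, the same assembly as mm9), which gave symbols, lengths, exons and overlaps. Means were divided by exon length, or set as a ratio between tables, at a minimum mean of 10 and a threshold of 0.1 on the log2 scale. The script for the ratio was first checked on simulated means. Coding sequences were searched with BLAST+ 2.17.0. Start sites came from the first RefSeq entry of each symbol. Python 3.11.15, numpy 2.4.6, pandas 2.3.3, scipy 1.17.1, Biopython 1.88 and matplotlib 3.10.9 were used.

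The members and lists were chosen with earlier results of these data known. Named are the 5 highest and 5 lowest members per kb, paralogs with their parents, the 4 furthest up and down in the ratio at a mean of at least 100, members of set roles, unlisted genes of the rule, *Srrm2*, *Fau* and *Gnb2l1*. A gene that the rule also names is not reported here. Others serve as examples chosen after their values were seen.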

Additional observations from a re-analysis of the deposited data

How the results depend on the processing

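The median centred log2 ratio stayed below 0 under every alternative tried for it. The median centred log2 ratio of the members (-0.12) was -0.127 at a minimum mean of 100, -0.121 with no minimum, -0.137 when centred on the summed means and -0.129 at a minimum mean of 1000, the last chosen after seeing the data. The count of members past 0.1 lower (48) was 70, 56 and 50 at a threshold of 0.05, with centring on the summed means and at a minimum mean of 100, but 5 at a threshold of 0.2. All genes past 0.05 lower came to 36.4% and past 0.2 lower to 10.1%, so at 0.2 the share of members was under that of all genes. Members past 0.1 higher (3) became 1 at a threshold of 0.2 and 1 at a minimum mean of 100. Of the 7757 genes whose means reached 100, 1569 were past 0.1 lower and 1813 higher. Those 2 counts keep the centring on all genes, whereas the members were centred anew at that minimum. The share of all genes is not given for centring on the summed means, or for genes higher at 0.2. The median scaled level (645) was 940 with the longest coding transcript, 671 over protein-coding genes and 905 with the lowest-numbered coding transcript, which was added after seeing the data. The share of the summed means (2.49% and 2.73%) was 2.67% and 2.92% over protein-coding genes, 2.64% and 2.89% without *Malat1*, and 2.47% and 2.71% without symbols ending in l or l1. No paired analysis was possible because the deposited means hold no value per library, and for the same reason no replicate could be left out.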
